A study of Mus musculus with 6 samples.

Results

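Rod and cone phototransduction genes were examined in RNA sequencing of primary RPE cells from mice, the pigment epithelium that lies against the photoreceptor outer segments. The genes were taken by symbol from a list of 39, and expression of 1 of them, Guca1a, was not analysed here. The other 38 are among the 28043 genes measured. Each was placed in a group by its known site of use, with 9 rod genes, 10 cone genes, 14 genes used by rods and cones, and 5 that are also used by many other cells. Poly(A) RNA had been sequenced from 3 libraries labelled normal and 3 labelled PVR, that is, proliferative vitreoretinopathy, a scarring disease of the injured eye that the series title calls traumatic. Strain, age, sex, the way PVR was induced, the time after injury, and whether animals were pooled are not stated in any label used here, and no label says that the 3 libraries of a group are separate animals. Each p-value is therefore relative to the variation among these 6 libraries, and that variation may be technical. Values are normalised counts, that is, reads divided by 1 size factor per library, and a group is given as mean ± SD of its 3 libraries. A log2 change is the PVR mean less the Normal mean of log2(normalised count + 1), and the added 1 makes changes of genes with few reads look smaller. A gene is said to rise or fall where limma's Benjamini-Hochberg adjusted p over all tested genes was under 0.05.

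In photoreceptors light activates an opsin, the opsin activates the G protein transducin, and transducin relieves the inhibition of the phosphodiesterase PDE6. PDE6 breaks down cyclic GMP, cyclic-nucleotide-gated channels close and the cell hyperpolarises. Arrestins, the opsin kinase and the RGS9 complex switch the cascade off, and guanylate cyclases with their calcium-sensing activators restore cyclic GMP. Rods and cones build the cascade from different paralogs of most subunits. RPE cells take up shed outer segments every day and adhere to the photoreceptors, so fragments of photoreceptors can come along when RPE is isolated.

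The libraries held 15269983 to 19173187 reads counted to genes. A count of 3 reads, the most that a count of 0 allows, correspond to 2.72 to 3.42 normalised counts, a floor that covers counting error only. Of 15 RPE markers 11 fell in PVR, and their summed level was 925435 to 1010125 in Normal and 645856 to 718915 in PVR. All 15 were detected in each library, although Best1, the RPE chloride channel gene, had only 7.56 to 22.8 (named after its values were seen). Of 15 macrophage markers 14 rose and 1 (Csf1r) fell, their summed level was 10587 to 12064 in Normal and 35388 to 87907 in PVR (883 to 1847 and 27153 to 80332 without Csf1r), and none was at 0 in any library. The part of these other transcripts in the results below was not tested. In bulk RNA, fewer cells of a type and less RNA per cell cannot be told apart.

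Of the 38 genes, 32 had enough reads to be tested, of which 3 rose and 8 fell. The 3 that rose were Gnb3, Gngt2 and Rgs9, and the 8 that fell were Pde6c, Gucy2e, Rom1, Cngb1, Gucy2f, Pde6d, Abca4 and Gnb5. Across all 15766 tested genes 17.9% were higher and 12.9% lower, so 9.38% higher and 25.0% lower among these 32 genes stand below and above the background, a difference that was not tested. In either direction it was 11 of the 32, against 30.8% of all tested genes. In 4 genes every PVR value was above every Normal value and in 9 every PVR value was below, against 24.7% and 23.3% of all. With the replicate number as a block (same-numbered libraries deviated together), 10 of the 32 were higher and 8 lower, against 19.5% and 14.3% of all tested genes. Without Normal replicate 2 the count was 9 higher and 7 lower, against 16.8% and 9.44%. With the replicate block the share higher among the 32 genes was above the background, the reverse of the main test. The share was above the background without Normal replicate 2 as well, but this is not separate evidence. Normal replicate 2 was the highest Normal library in 16 of the 18 genes with uneven Normal values (below), so leaving it out lowers their Normal means. Leaving out any other single library gave 3 higher, as in the main test.

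**Figure D1:**
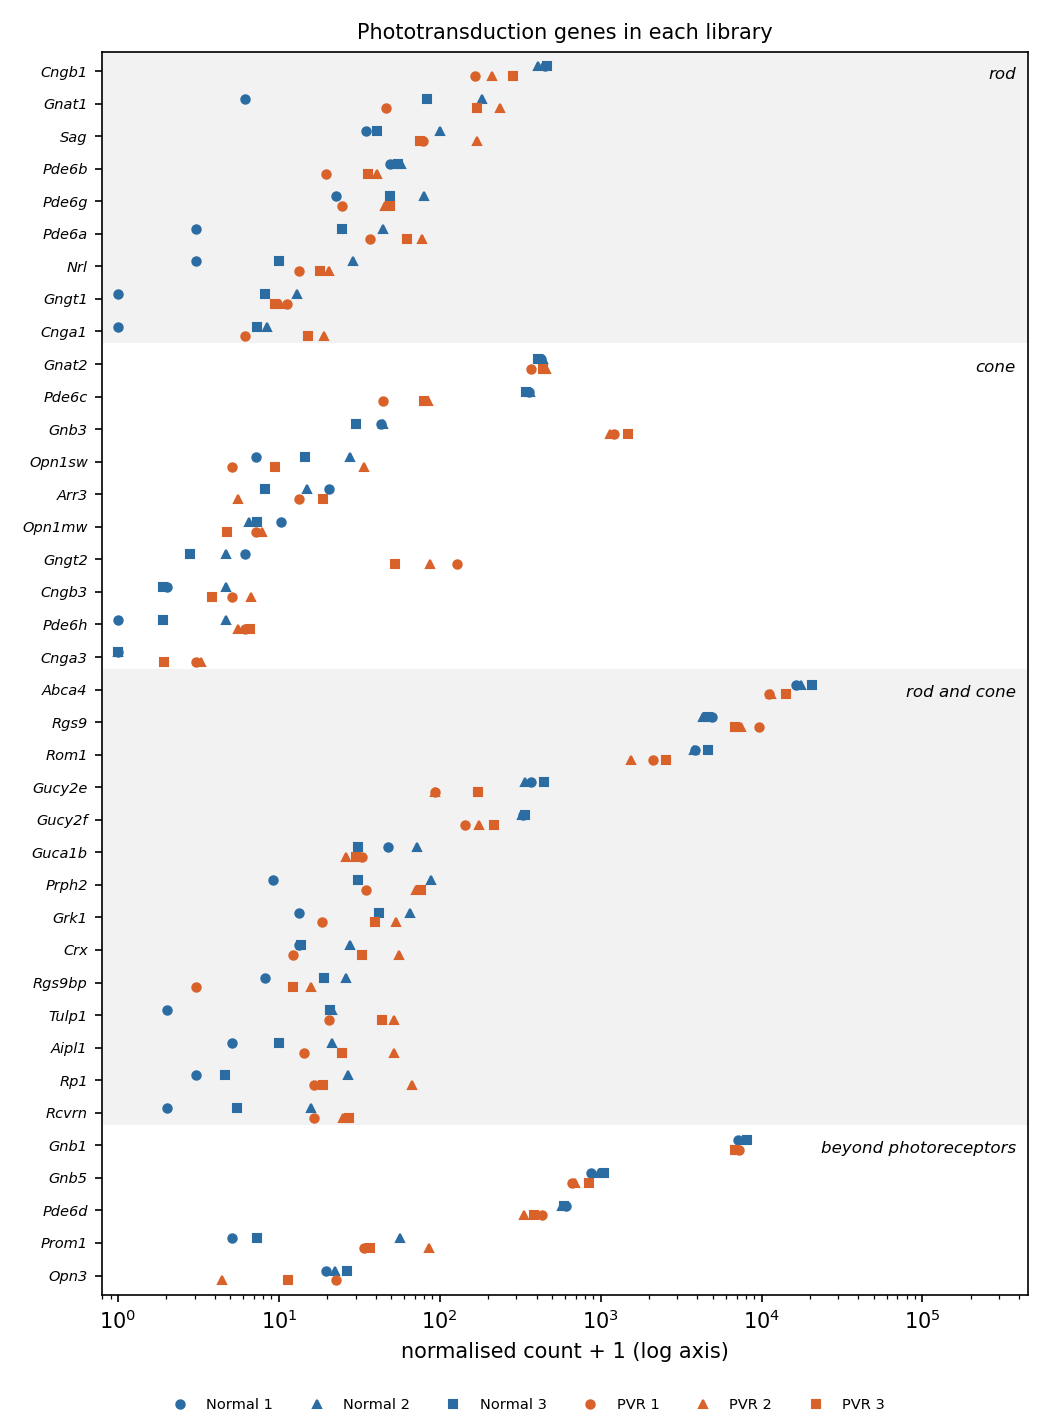
Normalised count + 1 (log axis) of each of the 38 genes in each of the 6 libraries, grouped as rod, cone, rod and cone, and beyond photoreceptors. Normal libraries are blue and PVR libraries orange, and the marker shape gives the replicate number. The 3 PVR values of Gnb3 (1141 to 1471) lie far above the 3 Normal values (29.0 to 43.5), whereas Gnat1 spans 5.15 to 182 within Normal alone.

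**Figure D2:**
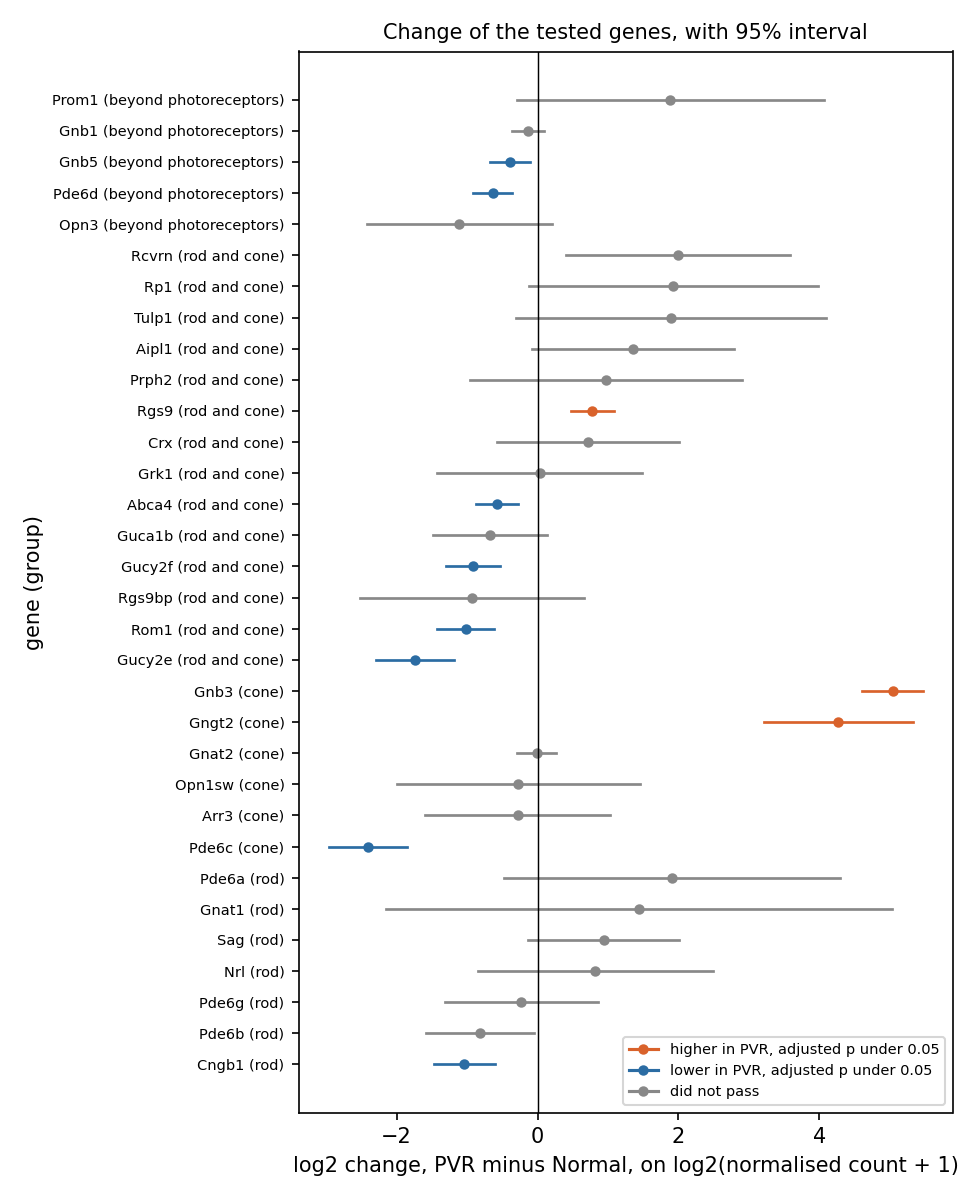
Log2 change, PVR minus Normal, of the 32 tested genes with the 95% interval from limma. Orange marks the 3 genes that rose, blue the 8 that fell and grey the 21 that did not pass, and the widest interval is that of Gnat1 (-2.16 to 5.03).

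The transducin genes showed the widest contrast, with a cone beta subunit that rose and a cone alpha subunit that held its level. Gnb3 encodes the beta subunit of cone transducin and is also used by ON bipolar cells. Its normalised counts were 42.3, 43.5 and 29.0 in Normal and 1214, 1141 and 1471 in PVR. The groups were far apart, and the means were 38.3 ± 8.04 and 1275 ± 173, a 33.3-fold difference (log2 change 5.04, SE 0.19, limma adjusted p = 1.72e-06). Gnb3 lies on chromosome 6 at 124834240 to 124840275 (GRCm38), and none of its annotated exon bases is shared with another gene.

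Gngt2, the gamma subunit gene of cone transducin that leukocytes also express, had 5.15, 3.70 and 1.81 in Normal and 127, 85.4 and 51.9 in PVR. In reads, Gngt2 had 5, 4 and 2 in Normal and 123, 75 and 55 in PVR, and all PVR values were above all Normal values (log2 change 4.27, SE 0.47, limma adjusted p = 0.000239). With so few Normal reads, Gngt2 passed the read filter only through its PVR libraries. The order of the PVR libraries in Gngt2 put replicate 3 lowest, as in all 14 macrophage markers that rose. PVR replicate 3 was also lowest in 34.7% of all tested genes. It was lowest in 47.5% of those whose highest Normal library was at least 2 times the lowest, as in Gngt2. The highest PVR library was replicate 1 for Gngt2 and replicate 1 or 2 for these markers. Gngt2 (chromosome 11, 95837216 to 95845734) shares exon bases on the opposite strand with Abi3, which had 7.21, 2.78 and 0.906 in Normal and 42.2, 37.6 and 7.56 in PVR. No source used here says whether the counting used strand, so reads of the pair may be mixed. The part of macrophages in the Gngt2 difference was not tested.

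Gnat2, the alpha subunit gene of cone transducin, had 425, 439.9 and 409 in Normal and 371, 459 and 439 in PVR. The groups overlapped, and the log2 change of -0.01 had a 95% interval of -0.29 to 0.27 (limma adjusted p = 0.962). Its rod counterpart Gnat1 had 5.15, 182 and 82.5 in Normal and 45.3, 237 and 169 in PVR, so the libraries of 1 group differed more than the group means did (limma adjusted p = 0.502). Gngt1, the rod gamma subunit gene, was too low to be tested, at 0, 13 and 8 reads in Normal and 10, 8 and 9 in PVR. Gnb1, the rod beta subunit gene that nearly all cells use, was abundant, at 7112, 7919 and 8152 in Normal and 7277, 7066 and 6797 in PVR. It did not pass the test (log2 change -0.13, limma adjusted p = 0.362), and its groups overlapped.

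Among the PDE6 genes the cone catalytic subunit fell most. Pde6c had 357, 361 and 343 in Normal and 43.2, 83.1 and 79.3 in PVR. Its Normal values were close together and lay wholly above the PVR values, with means of 354 ± 9.18 and 68.6 ± 22.0 (log2 change -2.41, SE 0.25, limma adjusted p = 0.000166). Pde6c lies on chromosome 19 at 38132781 to 38183958. The rod catalytic genes differed from each other in pattern. Pde6b had 48.4, 56.5 and 54.4 in Normal and 18.5, 39.9 and 34.9 in PVR, and its groups did not overlap, which was so for 48.0% of all tested genes, yet it did not pass (log2 change -0.82, limma adjusted p = 0.0988). Pde6a had 2.06, 43.5 and 23.6 in Normal and 36.0, 76.3 and 61.4 in PVR, with groups that overlapped (log2 change 1.91, limma adjusted p = 0.196). With the replicate block Pde6a was called higher (limma adjusted p = 0.0287).

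Pde6g, the inhibitory subunit gene of rod PDE6, had 21.6, 78.7 and 48.0 in Normal and 23.7, 44.4 and 48.2 in PVR, and its groups overlapped (limma adjusted p = 0.755). The cone inhibitory subunit gene Pde6h had 0, 4 and 1 reads in Normal and 5, 4 and 6 in PVR, too few to be tested. It shares exon bases with Arhgdib on the opposite strand, a gene of leukocytes that had 18.1 to 35.0 in Normal and 179 to 513 in PVR. Pde6d encodes a carrier of prenylated proteins and is used well beyond photoreceptors. It had 608, 577 and 593 in Normal and 430.4, 333 and 385 in PVR, so its groups did not overlap, and it fell (593 ± 15.6 to 383 ± 49.0, log2 change -0.64, limma adjusted p = 0.00415).

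The membrane guanylate cyclases fell together, as did 1 channel subunit. Gucy2e encodes the cyclase retGC1, which rebuilds cyclic GMP after light. It had 370.0, 336 and 447 in Normal and 92.7, 92.3 and 171 in PVR (384 ± 56.7 to 119 ± 45.3, log2 change -1.74, SE 0.25, limma adjusted p = 0.000873). Every PVR value was under every Normal value of Gucy2e. Gucy2f, the gene of the second cyclase, had 328, 322 and 337 in Normal and 142, 174 and 215 in PVR (log2 change -0.91, SE 0.17, limma adjusted p = 0.00326). Its Normal values were nearly equal and its PVR values lay below them. Guca1b, which encodes a calcium-sensing activator of these cyclases, had 46.4, 71.3 and 29.9 in Normal and 31.9, 25.1 and 29.3 in PVR, with overlapping groups (limma adjusted p = 0.187).

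Cngb1, the beta subunit gene of the rod channel, had 452, 406 and 464 in Normal and 164, 209.6 and 284 in PVR (441 ± 30.9 to 219 ± 60.9, log2 change -1.04, SE 0.19, limma adjusted p = 0.00308). Its partner Cnga1, the alpha subunit gene, had 0, 8 and 7 reads in Normal and 5, 16 and 15 in PVR and could not be tested. The rod channel genes thus lay at very different levels: where Cnga1 had reads, the normalised count of Cngb1 was 11.5 to 73.1 times that of Cnga1, a ratio not corrected for length. The cone channel genes were nearly absent. No Normal library had a read of Cnga3, and the PVR libraries had 2, 2 and 1, at or below the floor of 3 reads, and Cngb3 had 1 to 4 reads in Normal and 3 to 5 in PVR.

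The 250 bases before the start of 4 genes that fell and 1 that rose are shown as examples of windows with and without the core sequence that CRX binds in photoreceptors and its relative OTX2 binds in photoreceptors and RPE. The core searched was TAATCC on either strand (GGATTA on the other), and matches are in capitals. The sequences are from RefSeq on GRCm38.p6, 5′ to 3′ on the strand of the gene, and all 5 genes were matched by symbol. Cngb1 is at chr8:95306586-95306835 (minus strand), Gucy2e at chr11:69237023-69237272 (minus), Gucy2f at chrX:142196937-142197186 (minus), Abca4 at chr3:122044210-122044459 (plus) and Rgs9 at chr11:109298182-109298431 (minus).
Cngb1: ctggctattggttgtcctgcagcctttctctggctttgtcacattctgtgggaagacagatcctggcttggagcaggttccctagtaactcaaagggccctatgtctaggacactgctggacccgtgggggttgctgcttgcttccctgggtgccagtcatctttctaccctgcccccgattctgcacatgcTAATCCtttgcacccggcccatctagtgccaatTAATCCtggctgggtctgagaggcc
Gucy2e: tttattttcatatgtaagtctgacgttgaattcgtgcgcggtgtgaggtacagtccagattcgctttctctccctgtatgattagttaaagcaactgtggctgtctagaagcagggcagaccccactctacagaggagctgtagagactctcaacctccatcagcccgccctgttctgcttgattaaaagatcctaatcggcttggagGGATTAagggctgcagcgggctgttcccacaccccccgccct
Gucy2f: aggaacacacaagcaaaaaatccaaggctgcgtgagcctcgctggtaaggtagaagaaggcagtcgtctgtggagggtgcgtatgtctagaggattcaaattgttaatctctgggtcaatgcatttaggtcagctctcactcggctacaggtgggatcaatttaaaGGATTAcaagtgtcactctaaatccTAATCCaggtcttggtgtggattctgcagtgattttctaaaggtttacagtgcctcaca
Abca4: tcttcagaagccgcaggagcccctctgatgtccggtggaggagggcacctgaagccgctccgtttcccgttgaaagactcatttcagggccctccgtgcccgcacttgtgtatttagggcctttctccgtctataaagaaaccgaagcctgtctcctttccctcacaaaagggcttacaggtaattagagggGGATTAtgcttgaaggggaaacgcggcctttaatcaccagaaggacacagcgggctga
Rgs9: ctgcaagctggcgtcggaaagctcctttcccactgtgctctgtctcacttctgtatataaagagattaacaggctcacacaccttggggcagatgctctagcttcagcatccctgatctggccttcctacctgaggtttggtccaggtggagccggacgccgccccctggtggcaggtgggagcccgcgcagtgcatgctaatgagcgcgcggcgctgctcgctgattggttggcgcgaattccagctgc

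Cngb1 and Gucy2f each hold 2 matches and Gucy2e and Abca4 hold 1, whereas the Rgs9 window holds none. The windows of Rom1 and Pde6d, which fell and are not shown, hold none either. Of the 39 listed genes 28 have a start in the RefSeq table, and 12 of these (42.9%) hold the core in this window, against 7.21% of 27025 genes with a start there. Guca1a, whose expression was not analysed, is counted in the 28 and in the 12. Among the genes that fell, 5 of the 7 with a start hold it (Abca4, Cngb1, Gnb5, Gucy2e and Gucy2f). Of the 14 with a start that were tested and did not pass, 4 hold it (Aipl1, Crx, Gnat2 and Sag). Other sequences were counted the same way. TGCTGA, the start of the response element that NRL binds in rods, was in 17.9% of the listed genes with a start and in 18.0% of all, and CACGTG, an E-box core bound by MITF among others, was in 0 and in 6.86%. A match is a description of the letters only and a missing match says nothing of binding. Otx2 itself, named here after its values were seen, fell in PVR, from 16156 ± 864 to 10104 ± 988 (log2 change -0.68, limma adjusted p = 0.0017), whereas Crx had 12.4, 26.9 and 12.7 in Normal and 11.3, 54.7 and 32.1 in PVR and did not pass (limma adjusted p = 0.378).

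The genes that switch the cascade off moved in different directions. Rgs9 encodes the GTPase-activating protein that ends transducin signalling, with a retinal and a brain isoform that gene counts do not separate. It had 4907, 4298 and 4629 in Normal and 9605, 7481 and 6812 in PVR, a rise from 4611 ± 305 to 7966 ± 1458 with no overlap (log2 change 0.78, SE 0.14, limma adjusted p = 0.00236). Rgs9 lies on chromosome 11 at 109225355 to 109298129. Gnb5, whose product is the obligate partner of RGS9, had 868, 971 and 1044 in Normal and 665, 696 and 850.0 in PVR and fell slightly (log2 change -0.39, limma adjusted p = 0.0432). The Gnb5 call was lost without any single library except PVR replicate 3 (limma adjusted p = 0.0507 to 0.139). The anchor of the complex was scarce: Rgs9bp had 7.21, 25.0 and 18.1 in Normal and 2.06, 14.8 and 11.3 in PVR (limma adjusted p = 0.356).

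Sag, the rod arrestin gene, had 34.0, 99.1 and 39.9 in Normal and 77.2, 169.7 and 74.6 in PVR. Replicate 2 was the highest in each group and the groups overlapped (log2 change 0.94, limma adjusted p = 0.166), but Sag was called higher with the replicate block (limma adjusted p = 0.0147) and without Normal replicate 2 (0.0234). Leaving out the highest Normal library lowers the Normal mean, so that call is not separate evidence of a rise. The same applies to the calls of Rcvrn, Prph2, Prom1, Rp1 and Aipl1 without Normal replicate 2 below. Arr3, the cone arrestin gene, had 19.6, 13.9 and 7.25 in Normal and 12.4, 4.56 and 17.9 in PVR (limma adjusted p = 0.751), with its highest Normal value in replicate 1. Grk1, the opsin kinase gene, had 12.4, 64.8 and 40.8 in Normal and 17.5, 52.4 and 38.7 in PVR, with overlapping groups (limma adjusted p = 0.977). Rcvrn encodes recoverin, the calcium-dependent brake on that kinase. It had 1.03, 14.8 and 4.53 in Normal and 15.4, 23.9 and 26.4 in PVR, and its groups did not overlap (log2 change 1.99, limma adjusted p = 0.0588). The replicate block (limma adjusted p = 0.0267) and leaving out Normal replicate 2 (0.0089) each brought Rcvrn past the threshold, on 1 to 28 reads per library.

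The outer segment genes included the most abundant of the list. Abca4 encodes the transporter that clears retinal adducts from discs and has also been described in RPE. Its counts of 16461, 17517 and 20523 in Normal and 11071, 11427 and 14199 in PVR did not overlap, with means of 18167 ± 2107 and 12233 ± 1712, so it fell (log2 change -0.57, limma adjusted p = 0.0103). Rom1, which encodes a tetraspanin of disc rims, had 3873, 3798 and 4682 in Normal and 2114, 1536 and 2539 in PVR. Each PVR value of Rom1 was below each Normal value (4118 ± 490.1 to 2063 ± 503, log2 change -1.02, SE 0.18, limma adjusted p = 0.00308). Its partner in the disc rim behaved otherwise: Prph2, the peripherin gene, had 8.25, 87.1 and 29.9 in Normal and 34.0, 70.6 and 75.6 in PVR, with overlap (limma adjusted p = 0.409), and without Normal replicate 2 it was called higher (0.0474). Under the 18 alternatives of processing the log2 change of Prph2 ranged from 0.14 to 1.77. Per library the normalised count of Rom1 was 21.8 to 470 times that of Prph2, a ratio not corrected for length.

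Prom1, a gene of disc formation that other epithelia also use, had 4.12, 55.6 and 6.34 in Normal and 33.0, 84.3 and 35.9 in PVR. Its highest values were again in replicate 2 (log2 change 1.88, limma adjusted p = 0.169, 0.0131 with the replicate block and 0.0024 without Normal replicate 2). Under the 18 alternatives of processing the log2 change of Prom1 ranged from 1.19 to 3.13. Rp1, a gene of the photoreceptor axoneme, had 2.06, 25.9 and 3.63 in Normal and 15.4, 66.1 and 17.9 in PVR (log2 change 1.93, limma adjusted p = 0.14, 0.0114 with the block and 0.011 without Normal replicate 2). Both genes overlapped between groups only through Normal replicate 2. The PDE6 chaperone gene Aipl1 had 4.12, 20.4 and 9.06 in Normal and 13.4, 51.3 and 23.6 in PVR (log2 change 1.36, limma adjusted p = 0.137, 0.0316 with the block and 0.0493 without Normal replicate 2). Tulp1, a gene of protein transport to the outer segment, had 1.03, 20.4 and 19.9 in Normal and 19.6, 51.3 and 42.5 in PVR (log2 change 1.89, limma adjusted p = 0.17, 0.0205 with the block). In Aipl1 and Tulp1 the PVR library of each number was above the Normal library of that number.

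Nrl, the transcription factor gene that sets rod identity, had 2.06, 27.8 and 9.06 in Normal and 12.4, 19.4 and 17.0 in PVR, with overlap (limma adjusted p = 0.44). The cone opsin gene Opn1sw had 6.18, 26.9 and 13.6 in Normal and 4.12, 33.0 and 8.50 in PVR (limma adjusted p = 0.817), and it shares exon bases with Calu on the opposite strand. Opn1mw, the other cone opsin gene, had 6 to 9 reads in Normal and 4 to 6 in PVR and was not tested. Cone opsin transcripts were thus faint in each library. Opn3, an opsin gene used outside the retina, had 18.6, 21.3 and 25.4 in Normal and 21.6, 3.42 and 10.4 in PVR (limma adjusted p = 0.18), and it shares exon bases with Chml on the same strand.

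Levels of different genes were compared per kilobase of annotated exon. In Normal the highest were Rom1 (2714 normalised counts per kb), Gnb1 (1811), Abca4 (1511) and Rgs9 (722), followed by Gnb5 (308), Pde6d (272), Gnat2 (142) and Pde6c (119). In PVR the order was Gnb1 (1651), Rom1 (1360), Rgs9 (1247), Abca4 (1018) and Gnb3 (485), and Pde6c stood at 23.1. Gnb3 thus passed Gnat2 (141) and Gnb5 (237) in PVR, whereas at 14.5 it was far below them in Normal. Gnat1 stood at 29.7 in Normal and 49.7 in PVR and Sag at 6.48 and 12.0.

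To set genes that were even across the Normal libraries apart from genes that were not, the highest Normal library was divided by the lowest for each tested gene. This ratio does not use the PVR libraries, but the dividing line of 2 was drawn after the values were seen, so no test was made of the sets. The line fell in a gap between Gnb3 (1.5) and Crx (2.17). The 14 even genes, with ratios from 1.05 to 1.5, were Abca4, Gnb1, Rgs9, Rom1, Gnb5, Pde6d, Cngb1, Gnat2, Gucy2e, Pde6c, Gucy2f, Pde6b, Gnb3 and Opn3. Their mean in Normal was 21.7 to 18167, with a median of 433, and 2 rose and 8 fell. The other 18 had ratios from 2.17 to 35.4 and means of 3.56 to 90.0 in Normal, with a median of 17.0. Of these only Gngt2 changed, although 13 of the 18 log2 changes were above 0. The read filter keeps a gene that is low in Normal only if it has enough reads in PVR. Gngt2 passed through its PVR libraries alone, and Rcvrn and Rp1 needed theirs as well. The signs of such changes are therefore not independent of the filter. A wide spread within Normal enters the standard error, whose median was 0.71 for the uneven genes and 0.18 for the even ones, so the counts of calls in the sets are not independent of the division. Low reads widen the ratio as well.

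**Figure D3:**
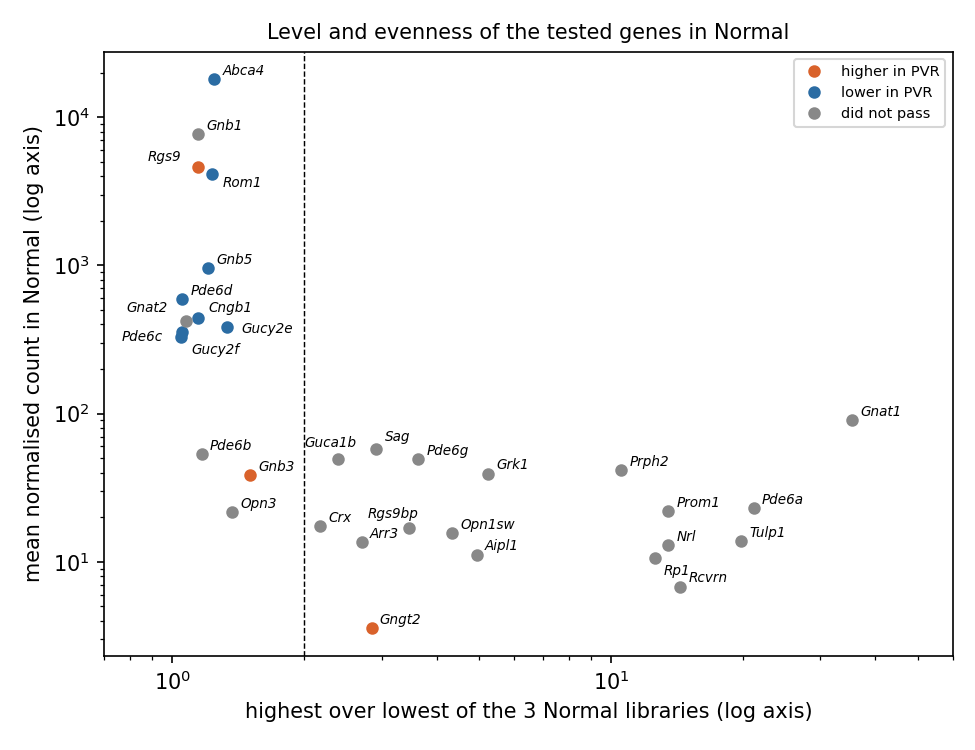
Mean normalised count in Normal against the ratio of the highest to the lowest Normal library, both on log axes, for the 32 tested genes. Orange genes rose in PVR, blue genes fell and grey genes did not pass, and the dashed line marks a ratio of 2. All 8 genes that fell lie left of the line, and Gnat1 lies farthest right, at 35.4.

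The uneven genes shared an order of libraries. Normal replicate 2 was the highest Normal library in 16 of the 18 and Normal replicate 1 the lowest in 15. Among all 2712 tested genes with a ratio of at least 2, Normal replicate 2 was highest in 46.3% and Normal replicate 1 lowest in 28.4%. In PVR, replicate 2 was highest in 12 of the 18 and replicate 1 lowest in 14, against 39.6% and 23.7% of the same 2712 genes. The summed level of the 18 genes was 195, 888 and 401 in the Normal libraries and 531, 1164 and 782 in the PVR libraries, so the ranges of the groups overlapped. In comparison the 14 even genes summed to 35869, 37066 and 41732 in Normal and 33230, 30742 and 34288 in PVR.

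Of 10 Müller glia markers, Normal replicate 2 was the highest Normal library in 6, and replicate 2 was the highest library of each group in 3. Over all tested genes these shares were 29.9% and 12.6%, and over those with a ratio of at least 2 they were 46.3% and 21.5%. The markers were not chosen by that ratio, and Aqp4 and Kcnj10 among them were not tested. Normal replicate 2 was the lowest Normal library in 2 of the 10 markers, Sox9 and Kcnj10. The 6 include Glul and Vim, which were abundant in Normal (means 34332 and 2446). Both were nearly flat there, with highest over lowest of 1.18 and 1.25, so the 6 do not share 1 pattern. Among the 3 that were highest in replicate 2 of each group, the channel gene Aqp4 had 0, 95.4 and 2.72 in Normal and 4.12, 29.6 and 4.72 in PVR. Aqp4, and Dkk3 in the next sentence, were singled out after their values were seen. Of the marker lists, 1 of 3 tested bipolar genes fell (Nyx), 2 of 8 tested Müller genes rose (Vim and Dkk3) and 1 fell (Car14), and the 2 tested amacrine and ganglion cell genes, Slc6a9 and Tfap2b, did not pass (limma adjusted p = 0.688 and 0.463). The part of retinal cells in the levels of the uneven genes was not tested.

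**Figure D4:**
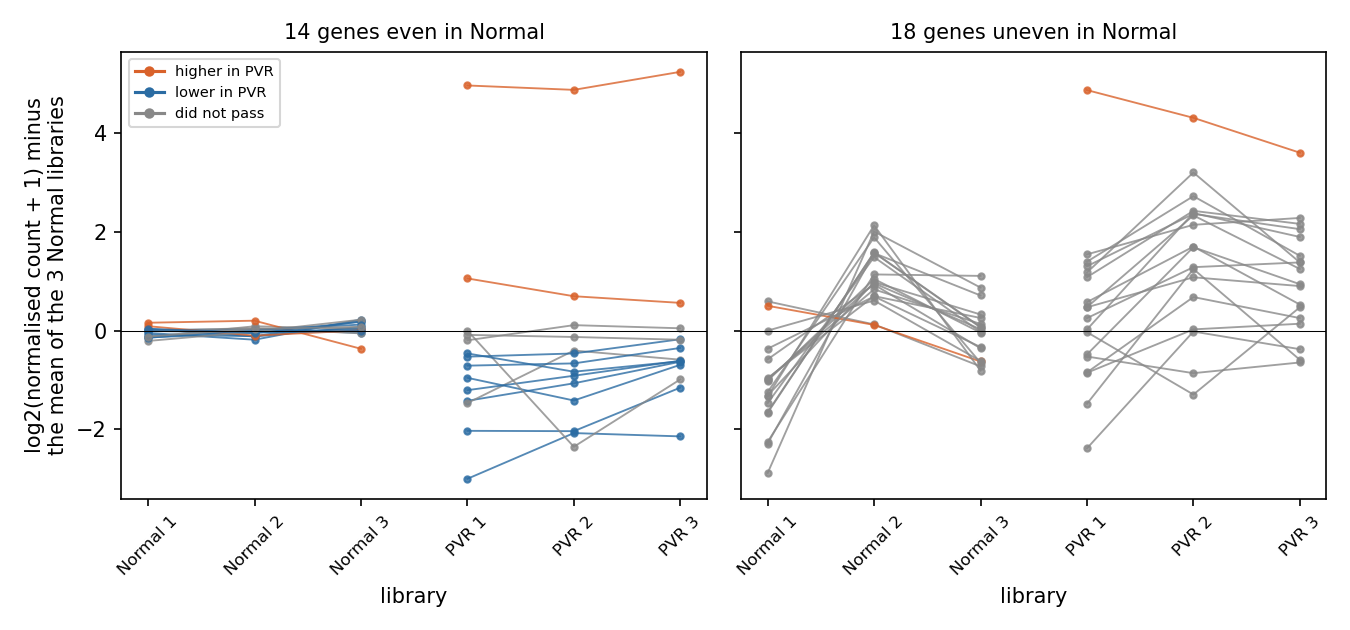
Log2(normalised count + 1) minus the mean of the 3 Normal libraries, for the 14 even genes (left) and the 18 uneven genes (right). Each line joins the libraries of 1 group for 1 gene, with orange for genes that rose in PVR, blue for genes that fell and grey for genes that did not pass. The uneven genes peak at Normal replicate 2 in 16 of 18 cases.

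Rod and cone genes were set side by side. Of 7 tested rod genes 1 fell (Cngb1) and 0 rose. There were 0 rises also at an unadjusted limma p under 0.05 and by edgeR, DESeq2 and limma-voom. The 14.3% of rod genes that fell is near the 12.9% of all tested genes that did, and 17.9% of all tested genes rose. With the replicate block 2 rod genes (Sag and Pde6a) were higher, against 19.5% of all tested genes. Without Normal replicate 2 there was 1 (Sag), against 16.8%. Of 6 tested cone genes 2 rose (Gnb3 and Gngt2) and 1 fell (Pde6c), the same counts as with the block. The median log2 change was 0.82 for the rod genes and -0.14 for the cone genes, beside -0.02 for all tested genes, and the difference between the groups was not tested. The summed level of the rod genes without Cngb1 was 113, 508 and 271 in Normal and 229, 614 and 428 in PVR, which overlap. Among the 14 genes used by rods and cones 1 rose (Rgs9) and 4 fell (Gucy2e, Gucy2f, Rom1 and Abca4), with a median of 0.38. Of the 5 genes used beyond photoreceptors 2 fell (Pde6d and Gnb5) and 0 rose. There were 0 rises here also at an unadjusted limma p under 0.05 and by the 3 other tools. All these groups are small, so their counts are descriptions to set beside the 17.9% higher and 12.9% lower of all tested genes.

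Other photoreceptor genes gave a like division. Of 34 such genes 24 were tested, 2 rose (8.33%, against 17.9% of all tested genes) and 6 fell (25.0%, against 12.9%), with a median log2 change of 0.27. Those that fell at least 2-fold were Nxnl1, which encodes a rod-derived cone viability factor (580.3, 629.8 and 571 in Normal and 119, 106 and 225 in PVR), Rd3, a guanylate cyclase regulator (346, 345 and 359 against 106, 105 and 226), and Lrit1 (170.1, 208 and 198 against 78.3, 104 and 99.2). These 3 were even across the Normal libraries, and Rd3 fell beside the cyclases that its product binds (limma adjusted p = 0.00694). Susd3 was among those that rose (0, 1.85 and 0.906 against 30.9, 55.8 and 22.7, limma adjusted p = 0.000769). Like Gngt2, Susd3 passed the read filter only through its PVR libraries. Only 1 gene of this list rose when Normal replicate 1, Normal replicate 3, PVR replicate 2 or PVR replicate 3 was left out.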

How the data were processed

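Poly(A) RNA was measured in 6 libraries, grouped and numbered by their titles, and per the labels' protocols TRIzol was used for extraction. The deposited unit is a signal, namely reads per gene that the authors divided by 1 size factor per library, as the values themselves show: 100% of values were whole multiples of 1 step within 0.001 reads, and the factors equal DESeq2's. Build mm10 and DESeq2 are named, with no role, per the submitters' processing notes; the aligner, counting program, strand setting and annotation were not given in the sources used here. Differences were tested with limma 3.58.1 (R 4.3.3; trend, robust) on log2(normalised count + 1) over the 15766 genes passing filterByExpr of edgeR 4.0.16 (minimum count 10). The plan named limma because an earlier account of these files gave the unit, and the count tests edgeR (4706 genes called), DESeq2 1.42.0 (4824) and limma-voom (4718) on recovered reads were alternatives, beside 4858 by limma. Other alternatives were pseudocounts, filters, scalings, a replicate block and left-out libraries. Same-numbered libraries deviated together (correlations 0.206, 0.195 and 0.179 across genes), a link that comes from these data and not from a label. The numbers were treated as pairs only in the replicate block alternative, and the main test did not use them. No 2 libraries were duplicates (chi-square at least 17.8 per gene). Rows named as dates (26, 0.102% of reads) stayed in. Coordinates and exon lengths are from GENCODE M21 (GRCm38, that is, mm10), 1-based, and 27362 names match it. Scripts were tested on simulated data. The members, groups and marker lists were chosen with earlier results of these data known. All members are accounted for, with values for each tested one and full statistics for the 5 called with the smallest p per direction, and of other photoreceptor genes those called with at least a 2-fold change, of which 1 is not reported here.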

Additional observations from a re-analysis of the deposited data

How the results depend on the processing

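Of the 11 phototransduction genes that changed, 10 kept their call and direction under all 18 alternatives, and the exception was Gnb5, lost under 8 (limma without a filter gave adjusted p = 0.0511 and DESeq2 0.0539). Of the 21 that did not pass, 8 were called under some alternative, all of them higher (Sag, Pde6a, Rcvrn, Prph2, Rp1, Aipl1, Tulp1 and Prom1). No called gene changed sign. With the replicate block the number of members higher was 10 in place of 3, with 2 in place of 0 rod genes, 5 in place of 1 gene used by rods and cones and 1 in place of 0 used beyond photoreceptors, and the block ended no call among the members. With Normal replicate 2 and PVR replicate 3 both left out these counts were 7, 1, 3 and 1. Over all tested genes that setting called 4218, of which 62.7% were higher. The replicate block called 5328 (57.8% higher) and the main test 4858 (58.2% higher). Genes used by rods and cones that were higher numbered 2 with a pseudocount of 5 and with no filter. Genes used beyond photoreceptors that were lower numbered 1 in place of 2 with no filter, by DESeq2 and with replicates 1 and 2 only. Other photoreceptor genes that were higher numbered 1 in place of 2 under library total scaling and with replicates 1 and 2 only. Leaving out 1 library at a time gave 3 to 9 members higher and 7 to 8 lower, 0 to 1 rod genes higher, 1 to 5 genes of rods and cones higher, 0 to 1 higher and 1 to 2 lower used beyond photoreceptors, 1 to 3 other photoreceptor genes higher, and 1312 to 2012 genes lower over the whole table in place of 2033, with the least without Normal replicate 1. The cause of these shifts was not tested. Rcvrn, Arr3, Rgs9bp and Opn3 had 28 reads or fewer in every library, and the part of depth in their results was not examined.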

Other observations

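Transcripts of partner genes were set against each other as ratios of normalised counts within a library, not corrected for length and described with no test. Gucy2e over Gucy2f was 1.13, 1.04 and 1.33 in the Normal libraries and 0.652, 0.529 and 0.794 in the PVR libraries, lower in each PVR library than in each Normal library. Rgs9 over its partner Gnb5 was 5.65, 4.43 and 4.43 in Normal and 14.4, 10.7 and 8.01 in PVR. Gnb1 over Gnb3, the rod and cone transducin beta genes, was 168, 182 and 281 in Normal and 5.99, 6.19 and 4.62 in PVR. Pde6a over Pde6b, the 2 catalytic chains of rod PDE6, was 0.0426, 0.77 and 0.433 in Normal and 1.94, 1.91 and 1.76 in PVR, with 2 reads of Pde6a in Normal replicate 1. Pde6c over Pde6b was 7.36, 6.39 and 6.32 in Normal and 2.33, 2.09 and 2.27 in PVR, narrow ranges in each group for genes of the cone and the rod enzyme. The PVR ratios rest on 18, 35 and 37 reads of Pde6b. The transducin alpha pair was not narrow. Gnat2 over Gnat1 was 82.4, 2.41 and 4.96 in Normal and 8.18, 1.94 and 2.6 in PVR, with 5 reads of Gnat1 in Normal replicate 1.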
